A study of Mus musculus with 11 samples.

Results

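The G1 cyclins and their partner kinases were taken as 8 genes: the D-type cyclins Ccnd1, Ccnd2 and Ccnd3, the kinases Cdk4 and Cdk6, the E-type cyclins Ccne1 and Ccne2, and the kinase Cdk2. Every region of H3K27ac that the authors' deposited table assigned to one of these symbols was kept, which gave 91 of 56342 regions. The assay was chromatin immunoprecipitation and sequencing (ChIP-seq) of histone H3 acetylated at lysine 27, a mark of active promoters and enhancers. Cells were Beko, 1 mouse pre-T cell line, kept for 24 h in DMSO (the control), in apicidin at 0.01 mg/ml or in the gamma-secretase inhibitor DAPT (GSI) at 10 mg/ml, doses as labelled. Apicidin inhibits histone deacetylases and is labelled here as an HDAC3 inhibitor, while DAPT blocks the cleavage that activates Notch receptors. Each condition had 2 H3K27ac libraries and 1 input, and RBPJ, the DNA-binding partner of cleaved Notch, was mapped in 2 further DMSO libraries. No label says that the libraries of a condition came from separate cultures, so p-values here reflect only how far these libraries spread, and that spread may be technical.

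In the G1 phase, D-type cyclins bind Cdk4 or Cdk6, and the resulting kinases begin to phosphorylate the retinoblastoma protein, which releases E2F transcription factors. E2F then drives the genes of E-type cyclins and of DNA replication, and cyclin E with Cdk2 completes the passage into S phase. D-type cyclins answer to outside signals. In thymocytes, cyclin D3 is known as the D-type cyclin needed for the expansion that follows pre-T cell receptor signalling, and Ccnd3 and Cdk6 are both known from T-cell leukaemia.

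The table gave no value per library. It gave, for each region, a base mean (the mean of normalised read counts over libraries), and for each compound a log2 fold change with its standard error (SE) and an adjusted p. The headers name no reference, which was taken to be DMSO. Calls of higher or lower rest on an adjusted p, as deposited, below 0.05. Normalisation between libraries can hide a shift shared by every region, so each change is relative to the other regions. Depth per library is unknown. Regions went to a gene by the nearest transcription start site, so an assigned distal region is not shown to act on that gene. Of 12 T-lineage markers 12 had a region (median base mean of the strongest 4135). A region was also assigned to 4 of 6 B-lineage markers (median 167), 3 of 5 erythroid markers (median 191) and 1 of 6 myeloid markers (Itgam, 1245).

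The 8 genes differed widely in how much acetylated chromatin was assigned to them. Ccnd3 had 32 regions covering 74.3 kb within a span of 99.4 kb, and only 27 of 12081 genes, Ccnd3 included, covered as much. Cdk6 had 31 regions covering 31.8 kb within a span of 82.6 kb, which begins upstream of the start and reaches 78.8 kb into a gene that RefSeq gives as 190 kb long. Ccnd1 had 18 regions, which reached 107 kb from its start site. Ccne1 had 4 regions, Ccnd2 and Cdk2 had 2 each, and Cdk4 and Ccne2 had a single region at the start site. Many of these regions were close fragments of 1 acetylated stretch: at Ccnd3, 14 of 31 gaps between neighbouring regions were under 200 bp. They are not independent observations.

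At the start sites, acetylation per length was high for most members and low for Ccnd2. By base mean per kb, the order in the authors' deposited table was Cdk4 (395), the downstream start of Ccnd3 (391), Ccnd1 (378), Cdk6 (356), Cdk2 (313), Ccne2 (312), Ccne1 (303), the upstream start of Ccnd3 (295) and Ccnd2 (97.4). The Ccnd2 start lay at percentile 1.84 of all 7889 regions that cover a start site, whereas the other 8 lay between percentiles 70.7 and 90.2. The base mean averages over treated and control libraries, so this is not the order in DMSO alone. The spread between libraries is not known for these levels, and the order among close neighbours is descriptive. Width separated them further: the downstream Ccnd3 start region spanned 11.0 kb (percentile 98.2 of start-site regions) and that of Ccne1 1.04 kb (percentile 18.8).

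RBPJ sites overlapped 6 of the 91 regions, or 6.59%, against 2.73% of all regions in the authors' deposited table. Of these 6, 4 covered a start site: the downstream start of Ccnd3, Cdk4, Cdk2 and Ccne1. The other 2 were a Ccne1 region 171 bp upstream of the start, and a Ccnd3 region 32.3 kb downstream of its upstream start. By position, the overlap was 4 of 9 member regions at a start site (44.4%), against 12.0% of all start-site regions. The member start-site regions were also wider (median 3642 bp, against 1929 bp) and stronger (median base mean 1136, against 475) than all start-site regions. Overlap was not compared at matched width or strength. Off the start sites it was 2 of 82 member regions (2.44%), and the share over all such regions was not computed. None of the 6 was called with either compound, as described with each gene below. Most regions were not called: with apicidin 9.69% of all regions were higher and 14.1% lower, and with GSI 6.62% and 7.17% of those tested. When apicidin values were centred on stronger regions, the downstream Ccnd3 start (0.19) and the Ccne1 start (0.48) were called higher.

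The sequences just upstream of the start sites are shown to set beside the 4 starts whose region had an RBPJ overlap (the downstream start of Ccnd3, Cdk4, Ccne1 and Cdk2) and the starts of Ccnd3 (upstream) and Cdk6, whose regions were called with a compound. RefSeq promoter sequences on GRCm38.p6 matched 5 of the 8 genes and 6 start sites, and Ccnd1, Ccnd2 and Ccne2 were not matched. Each line gives the 250 bases before a start, 5′ to 3′ in the direction of transcription. Its coordinates are on GRCm38.p6, whereas all region coordinates in the text are on mm9, and neither was converted.
Ccnd3, upstream start (GRCm38.p6 chr17:47504801-47505050, plus strand): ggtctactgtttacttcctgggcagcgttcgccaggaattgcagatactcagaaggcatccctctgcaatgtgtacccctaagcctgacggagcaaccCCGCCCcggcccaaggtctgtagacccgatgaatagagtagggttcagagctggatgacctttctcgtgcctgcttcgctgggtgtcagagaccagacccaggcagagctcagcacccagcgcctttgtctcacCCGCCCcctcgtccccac
Ccnd3, downstream start (GRCm38.p6 chr17:47593217-47593466, plus strand): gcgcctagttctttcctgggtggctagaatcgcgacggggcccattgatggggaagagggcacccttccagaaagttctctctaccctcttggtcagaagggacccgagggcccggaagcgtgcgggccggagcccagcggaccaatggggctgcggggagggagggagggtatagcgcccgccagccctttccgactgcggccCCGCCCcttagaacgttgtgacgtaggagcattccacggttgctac
Cdk4 (GRCm38.p6 chr10:127063285-127063534, plus strand): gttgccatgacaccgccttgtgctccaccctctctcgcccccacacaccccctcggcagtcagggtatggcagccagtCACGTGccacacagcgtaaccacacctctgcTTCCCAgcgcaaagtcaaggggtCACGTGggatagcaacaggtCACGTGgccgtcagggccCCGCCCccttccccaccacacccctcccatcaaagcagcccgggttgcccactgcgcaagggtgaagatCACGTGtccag
Cdk6 (GRCm38.p6 chr5:3343643-3343892, plus strand): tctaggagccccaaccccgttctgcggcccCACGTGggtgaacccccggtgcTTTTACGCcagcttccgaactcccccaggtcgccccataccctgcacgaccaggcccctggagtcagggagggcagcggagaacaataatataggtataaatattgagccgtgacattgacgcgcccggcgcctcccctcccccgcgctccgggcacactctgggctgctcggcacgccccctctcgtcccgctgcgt
Ccne1 (GRCm38.p6 chr7:38107491-38107740, minus strand): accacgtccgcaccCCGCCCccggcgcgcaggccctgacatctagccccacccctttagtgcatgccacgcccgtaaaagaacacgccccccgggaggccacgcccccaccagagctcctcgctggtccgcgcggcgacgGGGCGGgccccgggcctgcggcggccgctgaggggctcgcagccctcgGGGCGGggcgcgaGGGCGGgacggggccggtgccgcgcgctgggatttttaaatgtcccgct
Cdk2 (GRCm38.p6 chr10:128705052-128705301, minus strand): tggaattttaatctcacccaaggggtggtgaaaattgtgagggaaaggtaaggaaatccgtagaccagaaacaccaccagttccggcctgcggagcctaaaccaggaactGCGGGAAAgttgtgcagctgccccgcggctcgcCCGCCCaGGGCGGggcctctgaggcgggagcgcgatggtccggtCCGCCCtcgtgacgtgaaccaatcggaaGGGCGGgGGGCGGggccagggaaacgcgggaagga
Capitals mark matches, on either strand, to 4 short motifs: TTTNNCGC for E2F, TGGGAA for the core of the RBPJ site, CACGTG for the E-box bound by Myc and Max, and GGGCGG for the GC box bound by Sp factors. No match overlapped one of another motif in these windows.

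The windows were GC-rich (59.6% to 76.0% GC, against a median of 52.4% over 32851 promoters of the same length) but carried different motifs. Cdk4 held 4 E-boxes, a number reached by 0.0213% of all promoters, with 6.02% holding at least 1. Cdk2 held 5 GC boxes, a number reached by 1.93%, and Ccne1 held 4, a number reached by 4.09%. A GC box of any number occurred in 32.7% of promoters, in both Ccnd3 windows and in that of Cdk4, but not in that of Cdk6. The E2F motif was found in the Cdk2 and Cdk6 windows and in 4.28% of all promoters. The RBPJ core was found once, in Cdk4, and in 21.6% of all promoters. A match here is only a match of letters, and a window without one says nothing of the rest of an acetylated region, which at these genes was wider than the window.

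With apicidin, acetylation rose around parts of the D-type cyclin genes and in the Ccne1 gene, and fell at Ccne2 and at single regions of Ccnd1, Ccnd3 and Cdk6. By the authors' deposited table, 7 of the 91 regions were called higher (7.69%, against 9.69% of all regions) and 4 lower (4.40%, against 14.1%). At an unadjusted p under 0.05, 12 were higher (13.2%, against 14.2% of all regions) and 8 lower (8.79%, against 18.7%). The 3 D-type genes, which hold 52 of the 91 regions, held 6 of the 7 increases. That is 11.5% of their regions, near the 9.69% of all regions, and 4 of the 6 lay within 12 kb of the upstream Ccnd3 start. The median over the 91 regions was 0.00, the same as over all regions. The split depended on where 0 was set, since strong regions as a class lay at a median of -0.10. Centring on them gave 13 higher and 3 lower among the members, against 12.7% and 10.4% of all regions. Once the trend over base mean was taken out, 14 were higher and 3 lower, against 11.6% and 10.5%.

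With GSI, acetylation fell over a stretch inside the Ccnd3 locus and at the start sites of Cdk6 and Ccne2, and rose at a pair of distal Ccnd1 regions. An adjusted p was given for 42 of the 91 regions. The other 49 were weak (base means of 13.2 to 68.3) and stand as untested. Of the 42, the authors' deposited table called 2 higher (4.76%, against 6.62% of all tested regions) and 4 lower (9.52%, against 7.17%). These shares are near those of all regions. At an unadjusted p under 0.05, 6 of the 42 lay above 0 (14.3%, against 12.1% of all tested regions) and 4 below it (9.52%, against 12.5%). Of the 49 untested regions, 2 also had one, both at Ccnd3: 1.07 ± 0.53 SE at a base mean of 21.2 and -1.05 ± 0.41 at 35.5, per the authors' deposited table. Among the same 42 regions, 7 were higher and 4 lower with apicidin, or 16.7% and 9.52%, against 15.5% and 26.5% of all regions tested for GSI.

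**Figure D1:**
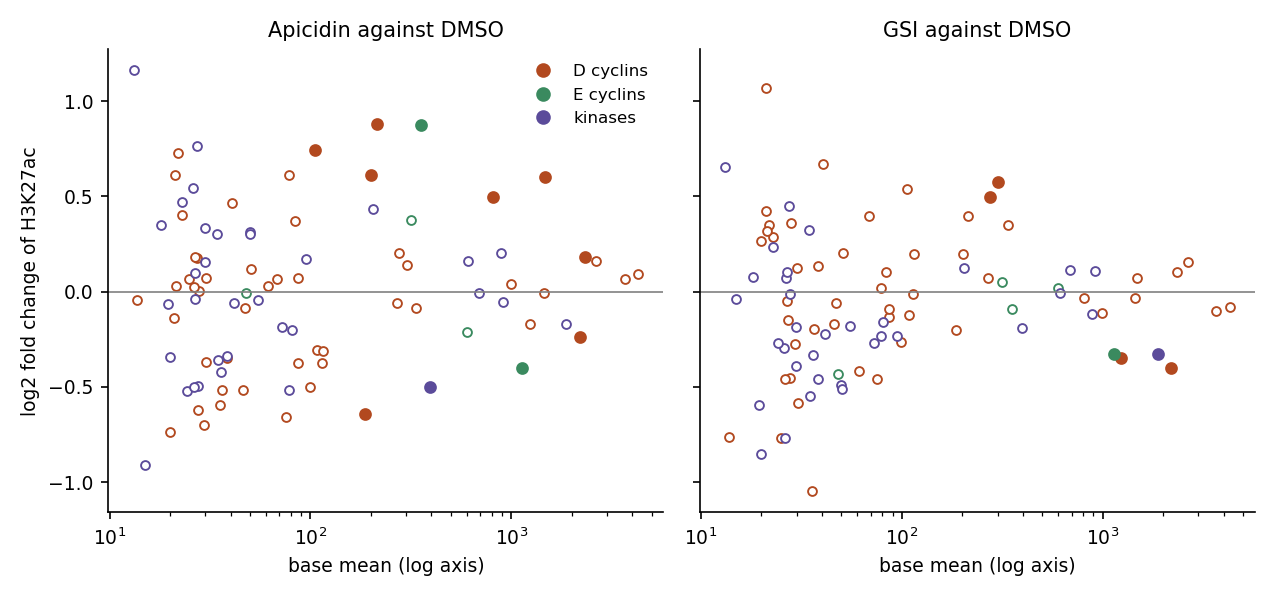
Log2 fold change of H3K27ac against DMSO (vertical) over base mean (horizontal, log axis) for the 91 regions, apicidin on the left and GSI on the right, coloured by D cyclins (52 regions), E cyclins (5) and kinases (34). Filled points have an adjusted p under 0.05: 7 higher and 4 lower with apicidin, 2 higher and 4 lower with GSI, all at base means of 106 or more.

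Start-site regions of the members are the most comparable set, with 1 or 2 per gene. Of 9 such regions, the authors' deposited table called 3 higher and 1 lower with apicidin, whereas of all 7889 start-site regions 8.01% were higher and 39.4% lower. For GSI, 0 were higher and 2 lower in that table, against 5.25% and 4.36% of 7617 tested start-site regions. At an unadjusted p under 0.05 with GSI, 1 of the 9 lay above 0 (Ccnd2, not called) and 2 below, against 9.71% and 9.19% of all start-site regions. By the authors' deposited table, the median over the 9 was 0.09 with apicidin, against -0.24 over all start-site regions, and 0.07 with GSI, against 0.00. The 9 regions were not chosen independently of earlier results, and no test was made of the set.

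**Figure D2:**
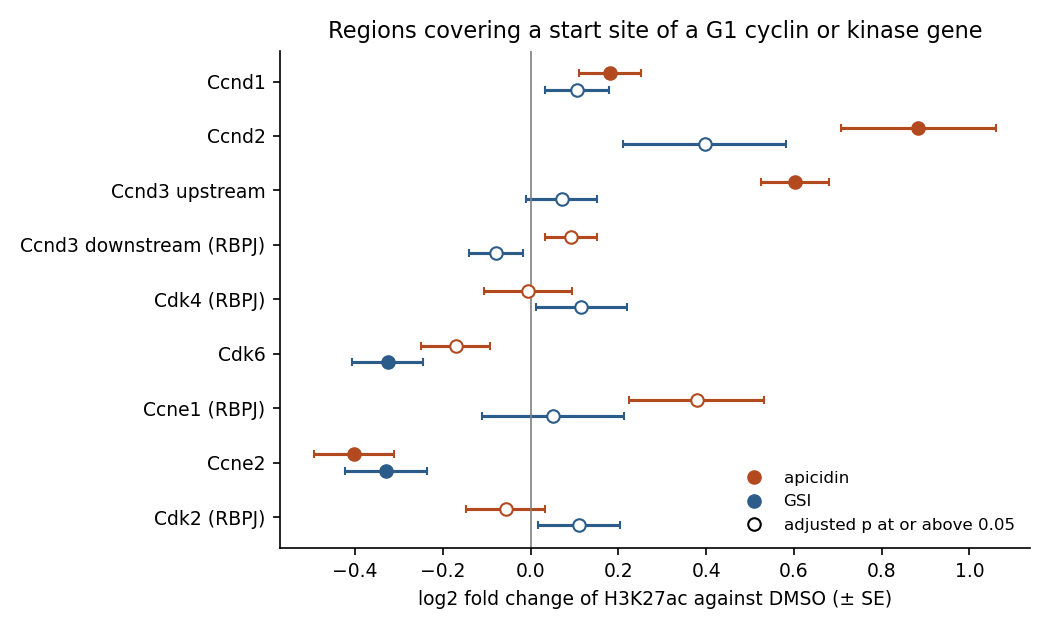
Log2 fold change of H3K27ac (horizontal, with SE) at the 9 regions that cover a start site, apicidin in orange and GSI in blue. Filled points have an adjusted p under 0.05: Ccnd1, Ccnd2 and the upstream Ccnd3 start were higher with apicidin, Ccne2 was lower with both compounds and Cdk6 lower with GSI, while the 4 regions with an RBPJ overlap are all open.

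Ccnd3, which encodes cyclin D3, has start sites 88.4 kb apart, and an apicidin increase was called at the upstream one. The upstream start region (chr17:47640022-47645028, base mean 1479, no RBPJ overlap) rose 1.52-fold with apicidin in the authors' deposited table, a log2 fold change of 0.60 ± 0.08 SE (adjusted p = 4.06e-13, DESeq2 Wald test). The downstream start region (chr17:47728508-47739466, base mean 4284, RBPJ overlap) is the strongest of the 91. It had 0.09 ± 0.06 with apicidin in the authors' deposited table (adjusted p = 0.293, 95% interval -0.03 to 0.21), against an interval of 0.45 to 0.75 at the upstream start. The difference between the starts was not tested. The downstream value was called higher on centring (0.19) and without the trend (0.23), still below the upstream values of 0.70 and 0.74 under those settings.

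The apicidin increase at Ccnd3 extended over the first kilobases downstream of the upstream start. Of the 5 regions from that start to 12 kb downstream, 4 rose, by 0.60 ± 0.08, 0.50 ± 0.10 (3.13 kb from the start), 0.61 ± 0.19 (9.43 kb) and 0.74 ± 0.25 (11.2 kb), in the authors' deposited table. The limit of 12 kb falls between the last called region and the next, uncalled one, so this count depends on where it was drawn. Among all regions tested for GSI, 15.5% were higher with apicidin. The region between them, 6.29 kb from the start and of base mean 994, had 0.04 ± 0.09 (adjusted p = 0.828) by the authors' deposited table. Further in, the wide regions 12.7 kb and 21.4 kb from the upstream start (base means 2655 and 3670) had 0.16 ± 0.07 (adjusted p = 0.0851) and 0.07 ± 0.06 (adjusted p = 0.496) per the authors' deposited table. Both were called higher on centring, at 0.26 and 0.17. The RBPJ-overlapping region at 32.3 kb (base mean 1450) had -0.01 ± 0.08 with apicidin and -0.03 ± 0.08 with GSI in the authors' deposited table, so neither compound moved it by more than its error.

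The regions that fell with GSI lay in another stretch of the Ccnd3 locus. A region of 13.6 kb lying 34.0 kb upstream of the downstream start (chr17:47682760-47696406, base mean 2189) fell by 0.40 ± 0.07 with GSI in the authors' deposited table (adjusted p = 3.97e-07), to 0.757 of the DMSO level. Close to it, the region 37.4 kb from the upstream start (chr17:47679396-47681719, base mean 1238) fell by 0.35 ± 0.09 (adjusted p = 0.00154) by the authors' deposited table. At 533 per kb this second region had the highest base mean per length of all 91. The authors' table marks no RBPJ overlap in either. With apicidin the 13.6 kb region fell by 0.24 ± 0.07 (adjusted p = 0.00275) in the authors' deposited table, a call lost on centring and without the trend, and its neighbour had -0.17 ± 0.09 (adjusted p = 0.144). Both compounds are set against the same DMSO libraries, so their values at a region are not independent. At the starts, GSI gave 0.07 ± 0.08 upstream and -0.08 ± 0.06 downstream in the authors' deposited table, neither called.

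**Figure D3:**
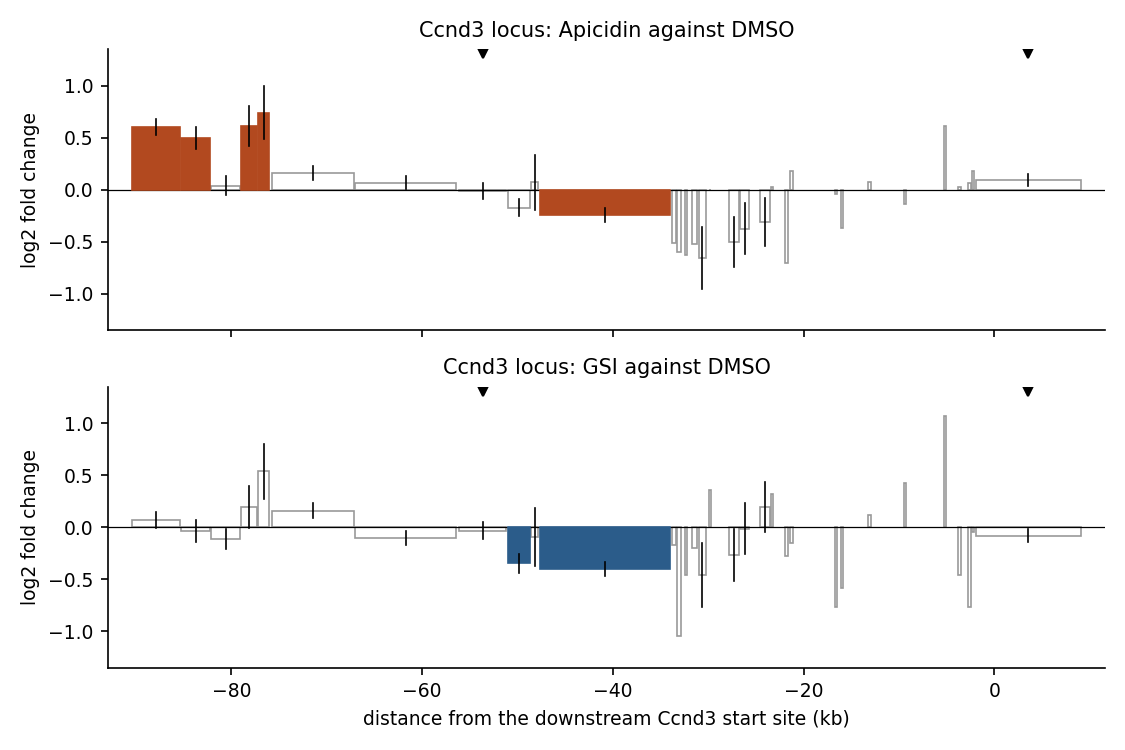
Log2 fold change of H3K27ac at the 32 Ccnd3 regions by distance from the downstream start (kb), apicidin above and GSI below, each bar as wide as its region. Filled bars have an adjusted p under 0.05, vertical lines are SEs (drawn for regions tested for GSI) and triangles mark RBPJ overlap: with apicidin the 4 higher regions lie at the left, by the upstream start, while the 2 lower regions with GSI lie in the middle of the locus.

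Ccnd1, which encodes cyclin D1, changed little at its start and more at single distal regions. Its start-site region (chr7:152123584-152129780, base mean 2340) had 0.18 ± 0.07 with apicidin in the authors' deposited table, a 1.13-fold increase whose adjusted p of 0.0459 lies just inside the threshold. With GSI the same table gave 0.11 ± 0.07 (adjusted p = 0.397). A region 24.1 kb away (chr7:152149913-152151115, base mean 186) fell by 0.64 ± 0.18 with apicidin (adjusted p = 0.00239) and had -0.20 ± 0.18 with GSI in the authors' deposited table. Regions 8.09 kb and 39.3 kb away (base means 276 and 302) rose with GSI by 0.50 ± 0.17 (adjusted p = 0.0294) and 0.58 ± 0.15 (adjusted p = 0.00245), per the authors' deposited table. With apicidin these had 0.20 ± 0.17 and 0.14 ± 0.15 by the authors' deposited table, neither called. The increase at 8.09 kb was lost when the GSI p-values were adjusted over all regions. The remaining 14 regions of Ccnd1 were called with neither compound. Averaged over all 18 regions, the apicidin value was 0.01.

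Ccnd2, which encodes cyclin D2, had the weakest start site of the family and the largest apicidin increase of any member start. Its region (chr6:127100282-127102472, base mean 213) rose 1.84-fold with apicidin, by 0.88 ± 0.18 on the log2 scale (adjusted p = 8.52e-06) in the authors' deposited table. With GSI it had 0.40 ± 0.19 (unadjusted p = 0.0333, adjusted p = 0.155) there. The difference between the compounds, 0.49 ± 0.26, did not pass its test (adjusted p = 0.314, 95% interval -0.02 to 0.99). The other Ccnd2 region, 1.63 kb away at a base mean of 40.5, had 0.47 ± 0.38 with apicidin in the authors' deposited table (adjusted p = 0.433) and was untested for GSI.

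Among the kinases, Cdk4 and Cdk2 were not called at their start sites and Cdk6 was lower with GSI. Cdk4, the partner of D-type cyclins, had 1 region (chr10:126500578-126502328, base mean 692, RBPJ overlap) with -0.01 ± 0.10 for apicidin (adjusted p = 0.978) and 0.12 ± 0.10 for GSI (adjusted p = 0.551), by the authors' deposited table. Its 95% intervals were -0.20 to 0.19 for apicidin and -0.09 to 0.32 for GSI. For Cdk2, the partner of E-type cyclins, the start-site region (chr10:128139948-128142859, base mean 913, RBPJ overlap) had -0.06 ± 0.09 (adjusted p = 0.727) and 0.11 ± 0.09 (adjusted p = 0.515) in the authors' deposited table. The intervals here were -0.23 to 0.12 for apicidin and -0.07 to 0.29 for GSI. The second Cdk2 region, of base mean 27.3, had 0.76 ± 0.45 with apicidin in the authors' deposited table and was not called (adjusted p = 0.235).

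Cdk6, the other partner of D-type cyclins and a large gene, fell at its start site with GSI and at 1 internal region with apicidin. Its start-site region (chr5:3340470-3345749, base mean 1880, no RBPJ overlap) fell by 0.32 ± 0.08 with GSI (adjusted p = 9.67e-04) in the authors' deposited table, to 0.798 of the DMSO level. For apicidin the same table gave -0.17 ± 0.08 there (adjusted p = 0.105), and the difference between the compounds, 0.16 ± 0.11, did not pass its test (adjusted p = 0.578). A region 60.0 kb downstream of the start, within the RefSeq length of the gene (chr5:3404263-3406667, base mean 396), fell by 0.50 ± 0.13 with apicidin (adjusted p = 0.00119) per the authors' deposited table. With GSI it had -0.19 ± 0.13 (adjusted p = 0.407) by the authors' deposited table. Of the 31 Cdk6 regions, 22 were untested for GSI, and the start-site region was the 1 called. On centring, the apicidin values at 9.87 kb and 37.8 kb (0.30 and 0.53) were called higher.

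**Figure D4:**
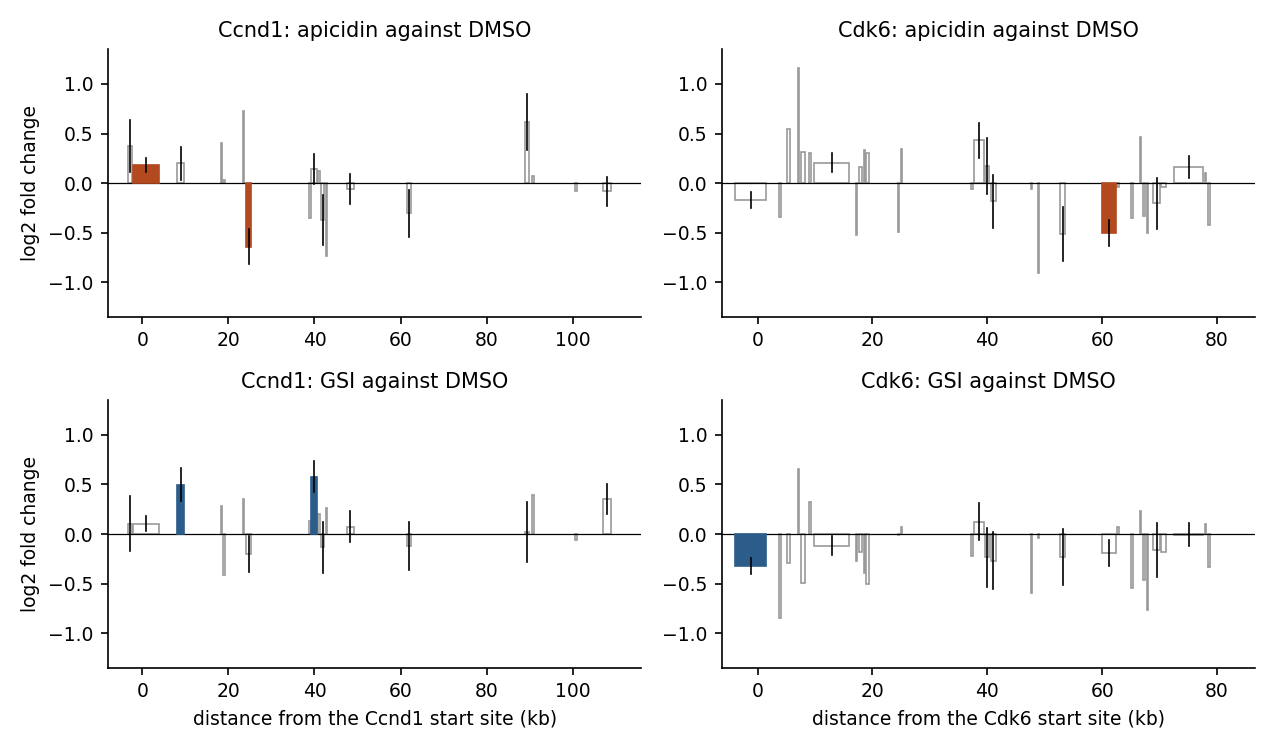
Log2 fold change of H3K27ac at the 18 Ccnd1 regions (left) and 31 Cdk6 regions (right) by distance from the start site in kb, with positive distances toward higher coordinates, apicidin above and GSI below. Filled bars have an adjusted p under 0.05 and vertical lines are SEs: Ccnd1 has 2 higher distal regions with GSI and 1 lower with apicidin, and Cdk6 is lower at its start with GSI and near 60.0 kb with apicidin.

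Ccne1 and Ccne2 encode the E-type cyclins. At Ccne1 an apicidin increase was called inside the gene, next to the start site. The promoter was split in the table into 3 regions. The region inside the gene, 1.20 kb downstream of the start (chr7:38888071-38891313, base mean 353), rose 1.84-fold, by 0.88 ± 0.14 (adjusted p = 4.38e-09), in the authors' deposited table. The region over the start (chr7:38891509-38892550, base mean 316, RBPJ overlap) had 0.38 ± 0.15 (adjusted p = 0.0583) by the authors' deposited table and was called higher on centring, at 0.48. Upstream of the start, the strongest of the 3 (chr7:38892681-38894646, base mean 601, RBPJ overlap) had -0.21 ± 0.11 (adjusted p = 0.178) in the authors' deposited table. With GSI they had -0.09 ± 0.15, 0.05 ± 0.16 and 0.02 ± 0.12, none called, in the same deposited table of the authors.

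Ccne2 was the 1 member whose start site fell with both compounds. Its single region (chr4:11116927-11120568, base mean 1136, no RBPJ overlap) fell by 0.40 ± 0.09 with apicidin (adjusted p = 1.05e-04) and by 0.33 ± 0.09 with GSI (adjusted p = 0.00522) in the authors' deposited table. These are 0.757 and 0.796 of the DMSO level, and they rest on the same DMSO libraries. The difference between the compounds was -0.07 ± 0.13 (adjusted p = 0.907), with a 95% interval of -0.33 to 0.18.

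The compounds were set against each other at all 91 regions, by the difference of their log2 fold changes, with adjustment over all 56342 regions. Because DMSO is shared, the SE used is an upper bound. Apicidin was above GSI at 3 regions and below it at 0, against 3.01% and 5.60% of all regions. At an unadjusted p under 0.05, 5 regions were above (5.49%, against 6.67% of all regions) and 2 below (2.20%, against 10.8%). The 3 were the upstream Ccnd3 start (0.53 ± 0.11, adjusted p = 9.28e-05), the Ccnd3 region 3.13 kb downstream of it (0.53 ± 0.15, adjusted p = 0.00686) and the Ccne1 region inside the gene (0.97 ± 0.20, adjusted p = 7.88e-05). At the Ccnd3 region of 13.6 kb that GSI lowered, the difference was 0.16 ± 0.10 (adjusted p = 0.429), so the GSI decrease there was not shown to exceed that with apicidin. With a correlation of 0.5 between the contrasts, for the shared controls, 7 regions were above and 2 below. The share of all regions at that setting was not computed, so these larger counts are not read as particular to the members.

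Regions assigned to other genes within 100 kb gave a local background. For scale, 9.69% of all regions were higher and 14.1% lower with apicidin, and 6.62% and 7.17% of those tested with GSI. Around Cdk6, 2 of 3 tested regions of other symbols fell with GSI, both assigned to Fam133b, by 0.32 ± 0.10 (adjusted p = 0.0149) and 0.89 ± 0.28 (adjusted p = 0.0168) in the authors' deposited table. They lie 152 kb and 150 kb downstream of the Cdk6 start, within the 190 kb that RefSeq gives for Cdk6. With apicidin, 0 of 16 such regions around Cdk6 were higher and 1 lower by the authors' DESeq2 calls. The lower one was a weak Fam133b region (base mean 40.1, -1.04 ± 0.37, adjusted p = 0.0239). At an unadjusted p under 0.05 there were 2 with apicidin, of which 1 lay above 0. Around Ccnd1, a region assigned to 1810010D01Rik (base mean 699) rose by 0.71 ± 0.11 with GSI (adjusted p = 2.15e-09) and by 0.62 ± 0.10 with apicidin (adjusted p = 6.84e-08), per the authors' deposited table. Near Ccnd3, 0 of 8 tested regions of other symbols were called with GSI by the authors' DESeq2 calls, with 1 of the 8 at an unadjusted p under 0.05. With apicidin 0 of 19 such regions were higher and 3 lower, and 6 had an unadjusted p under 0.05, of which 1 lay above 0. By smallest adjusted p, the lower ones were assigned to 1700001C19Rik (-1.15 ± 0.28, adjusted p = 2.98e-04) and Bysl (-0.66 ± 0.21, adjusted p = 0.00852). Near Ccnd2, 0 of 5 such regions were higher and 1 lower with apicidin by the authors' DESeq2 calls. It was assigned to D130058E03 (-0.53 ± 0.16, adjusted p = 0.00597). Of 25 regions of 8 other symbols near Cdk2, 4 rose with apicidin and 0 fell, and at an unadjusted p under 0.05 there were 5 above 0 and 1 below. The smallest adjusted p-values were at Dgka, a diacylglycerol kinase gene (0.66 ± 0.09, adjusted p = 2.19e-12), and at a weak region of Suox (1.30 ± 0.31, adjusted p = 2.15e-04, base mean 67.8), while the Cdk2 start did not move beyond its error, per the authors' deposited table. Near Ccne2, apicidin calls among 10 such regions were 1 higher and 2 lower, and those lower were at the start sites of Ints8 (-0.89 ± 0.15, adjusted p = 3.17e-08) and of the p53 target Trp53inp1 (-0.20 ± 0.06, adjusted p = 0.00865), by the authors' deposited table. Near Cdk4, 2 of 27 such regions were higher and 3 lower with apicidin by the authors' DESeq2 calls. At an unadjusted p under 0.05 there were 10 with apicidin, of which 4 lay above 0. With GSI, 3 of 13 tested were higher and 0 lower by the same calls, with no further region at an unadjusted p under 0.05. By smallest adjusted p, Os9 and the ganglioside synthesis gene B4galnt1 each had 1 region lower with apicidin (-0.46 ± 0.07 and -0.64 ± 0.09) and 1 region higher with GSI (0.29 ± 0.07 and 0.55 ± 0.10) in the authors' deposited table.

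The wider G1/S pathway was read by the strongest region of each gene, from 8 lists of 96 genes, of which 89 matched a region. With apicidin 6 of the 89 genes rose, 43 fell and 40 were not called in the authors' deposited table. Their median was -0.26. Over all 12081 genes 12.0% rose and 33.5% fell, with a median of -0.18. By the same measure 2 of the 8 cyclin and kinase genes rose (Ccnd1 and Ccnd2), 1 fell (Ccne2) and 5 were not called, with a median of -0.03. With GSI 3 of the 89 pathway genes rose, 6 fell, 74 were not called and 6 were untested in the authors' deposited table, against 7.74% higher and 6.80% lower of 10536 tested genes. Their median was -0.04. Of the 8 cyclin and kinase genes 0 rose, 2 fell and 6 were not called with GSI by the authors' DESeq2 calls, and by unadjusted p under 0.05 there was 1 above 0 and 2 below. No list was tested as a set. As at the members, the split of apicidin calls into higher and lower rests on where 0 is set. Many of the strongest regions in the lists cover a start site, such as 16 of 19 for the other cyclin and kinase genes. Of all start-site regions, 39.4% were lower with apicidin.

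Genes that restrain or answer to the G1 kinases were read as CDK inhibitors and as pocket proteins with E2F factors. In both lists the share lower with apicidin was above that of all genes. Of 5 matched CDK inhibitor genes 4 fell (80.0%, against the 33.5% of all genes) and 1 was not called. Among the 4 was Cdkn1c, named after its value was seen. It was read at a region of base mean 163 that lies 45440 bp from its start (-0.85 ± 0.21). Cdkn2c, whose product binds Cdk4 and Cdk6, fell by 0.81 ± 0.05 (adjusted p = 3.71e-50), Cdkn1b by 0.32 ± 0.05 (adjusted p = 3.63e-10) and Cdkn1a by 0.57 ± 0.10 (adjusted p = 2.54e-07) in the authors' deposited table. Of 12 pocket protein and E2F genes 8 fell (66.7%) and 4 were not called. E2f8, an E2F repressor gene, fell by 1.25 ± 0.15 (adjusted p = 4.97e-15), Rbl2 by 0.58 ± 0.12 (adjusted p = 1.09e-05) and Rbl1, which encodes a retinoblastoma relative as Rbl2 does, by 0.73 ± 0.15 (adjusted p = 1.96e-05), by the authors' deposited table. The Rbl2 region lies 113262 bp from its start.

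Later cell-cycle genes, and cyclin and kinase genes outside these groups, fell at shares on both sides of the 33.5% of all genes. Of 10 S and M phase cyclins, kinases and phosphatases with apicidin, 5 fell (50.0%), 1 rose and 4 did not pass. The mitotic kinase gene Cdk1 fell by 0.78 ± 0.09 (adjusted p = 2.05e-16), Ccna2 by 0.81 ± 0.10 (adjusted p = 3.74e-13) and Ccnb1 by 0.85 ± 0.11 (adjusted p = 6.71e-13) in the authors' deposited table. The increase, named after its value was seen, was at a region assigned to Ccnb2 from 66778 bp away (0.52 ± 0.10, and 0.66 ± 0.10 with GSI) in the authors' deposited table. With apicidin, 5 of 18 matched replication genes fell (27.8%, below the share of all genes), 1 rose and 12 did not pass. Mcm5, a helicase subunit gene, fell by 1.00 ± 0.13 (adjusted p = 6.54e-13), Cdc45 by 0.54 ± 0.10 (adjusted p = 1.55e-06) and Rrm1 by 0.54 ± 0.11 (adjusted p = 1.83e-05), per the authors' deposited table. Of 19 other cyclin and kinase genes, most with roles in transcription, 13 fell (68.4%), 0 rose and 6 were not called, with a median of -0.42. By the authors' DESeq2 test without adjustment, 14 of these had a p under 0.05 below 0 and 0 above. The smallest p-values in the authors' deposited table were at the kinase genes Cdk19 (-0.61 ± 0.08, adjusted p = 4.72e-12) and Cdk13 (-0.62 ± 0.08, adjusted p = 8.96e-12) and at Ccng1 (-0.93 ± 0.13, adjusted p = 2.76e-11).

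Regulators of G1 cyclin supply and loss were mixed. Among 12 cyclin turnover genes, apicidin calls were 5 lower (41.7%, against 33.5% of all genes) and 1 higher, with 6 not passing, led by Fbxo4, an F-box gene of cyclin D1 turnover (-1.36 ± 0.15, adjusted p = 3.91e-17), and the ubiquitin ligase scaffold gene Cul1 (-0.83 ± 0.09, adjusted p = 3.69e-17) in the authors' deposited table. The increase was at Skp1a, a subunit gene of the same ligase (0.38 ± 0.07, adjusted p = 6.19e-07), by the authors' deposited table. Of 10 upstream growth control genes 3 were higher (30.0%, against 12.0% of all genes), 2 lower and 5 not called with apicidin. Foxo3, which encodes a transcription factor that restrains the cycle, rose by 0.40 ± 0.06 (adjusted p = 7.25e-09) and the phosphoinositide kinase gene Pik3cd by 1.85 ± 0.40 at a base mean of 45.6 (adjusted p = 5.51e-05), per the authors' deposited table. Max fell by 0.44 ± 0.10 (adjusted p = 4.61e-05) at a region 76636 bp from its start, in the authors' deposited table. The remaining calls in the authors' deposited table, named after their values were seen, were Foxo1 (0.35 ± 0.10) and Myc (-0.26 ± 0.06). With GSI 2 of these 10 genes fell, Myc by 0.40 ± 0.06 (adjusted p = 1.19e-08) and Stat5a, a gene of cytokine signalling, by 0.38 ± 0.07 (adjusted p = 3.19e-06), per the authors' deposited table. The Stat5a region lies 24300 bp from its start. In the turnover list with GSI, Cul3 fell by 0.36 ± 0.06 (adjusted p = 9.69e-07) and Rbx1 rose by 0.36 ± 0.10 (adjusted p = 0.00245) in the authors' deposited table, both at regions 36303 and 55205 bp from the start. Of the CDK-activating kinase genes, Cdk7 fell with apicidin by 0.33 ± 0.12 (adjusted p = 0.0334) by the authors' deposited table, and the other two were not called. Elsewhere in the lists the authors' deposited table called E2f2 (-0.21 ± 0.07, adjusted p = 0.0158), Cdt1 (-0.21 ± 0.08, adjusted p = 0.0403) and Ccng1 (-0.43 ± 0.13, adjusted p = 0.0110) lower with GSI, and Ccng2 (0.34 ± 0.09, adjusted p = 0.00187) higher.

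**Figure D5:**
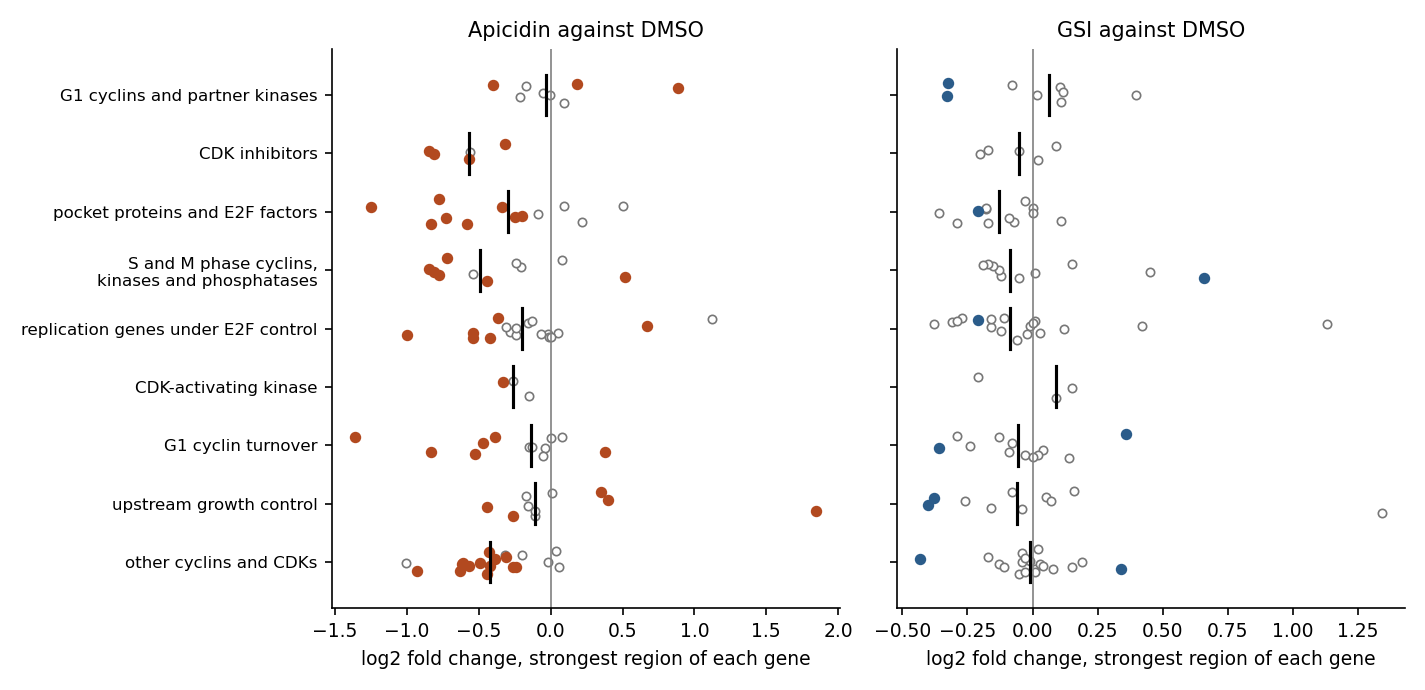
Log2 fold change at the strongest region of each gene (horizontal) for the 8 G1 cyclins and kinases (top row) and 8 pathway lists of 89 genes, apicidin on the left and GSI on the right. Each point is a gene, filled where the adjusted p is under 0.05, and black bars are medians: with apicidin the top row's median is -0.03 and those of the lists run from -0.57 to -0.11.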

How the data were processed

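H3K27ac was measured in 6 ChIP-seq libraries of Beko cells, 2 each for DMSO, apicidin and GSI, and RBPJ in 2. FastQC, Bowtie2, SAMtools, deepTools and the build mm9 are named in the submitters' processing notes. The method of region calling and read counting, and the role of the input libraries, were not given in the sources used here. Per the file headers, the columns are those of DESeq2. The base mean is a signal, a mean of normalised counts computed by the authors. The log2 fold changes and SEs are the authors' deposited values. The Wald score was deposited too and was the fold change over its SE within 0.175%. Raw and adjusted p-values are the authors' own, and GSI lacks an adjusted p below a base mean of 72.1.

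Members and lists were chosen with earlier results of these data known. The members, every start-site, RBPJ-overlapping and called region, up to 3 called genes per list and comparison and up to 2 called neighbours per member are named. Others are marked as named after their values were seen. For 1 gene of the lists no value is reported here. No gene was ranked by likeness to a member, since the table holds 2 contrasts with shared controls. Python 3.11.15, pandas 2.3.3 and scipy 1.17.1 were used. The compounds were compared by the difference of fold changes over the root of the summed squared SEs, as a two-sided normal test adjusted by Benjamini-Hochberg over all regions and tested on simulated data first. Intervals are the value ± 1.96 SE. Other thresholds, centring on regions no weaker than the median base mean, subtraction of the median in 20 bins of base mean, a fold minimum, a base mean minimum, a distance limit and other choices of a gene's region were tried.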

Additional observations from a re-analysis of the deposited data

How the results depend on the processing

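No paired analysis was possible because the deposited table holds no value per library, and for the same reason leaving out single libraries was not run. The results are therefore limited by 2 libraries per condition and by weak regions, whose SEs were large (median 0.44 for apicidin among the 49 members untested for GSI, 0.15 among the other 42). Centring on stronger regions raised the member regions called higher with apicidin from 7 to 13 and those above GSI from 3 to 6. Subtracting the trend raised them to 14 and 7. With a correlation of 0.5 between contrasts 7 regions were above GSI and 2 below, against 3 and 0. For the counts against GSI, no share over all regions was computed at these settings. They are therefore not read as particular to the members. A minimum absolute log2 fold change of 0.5 left 1 of 4 member regions lower with apicidin, 1 of 2 higher and 0 of 4 lower with GSI, and, among pathway genes, 3 of 6 higher and 23 of 43 lower with apicidin and 1 of 3 higher and 0 of 6 lower with GSI. That minimum removes smaller changes by construction. At an adjusted p under 0.01, 1 member region remained higher with GSI and 3 of 6 pathway genes lower, and adjustment over all regions also left 1 member region higher with GSI. No called strongest region of a member reversed under these alternatives, but calls were lost. At an adjusted p under 0.01 the apicidin call of Ccnd1 was lost, and the fold minimum removed the calls of Ccnd1 and Ccne2 with apicidin and of Ccne2 and Cdk6 with GSI. With all regions of a gene averaged, which gives no call, the apicidin value of Ccnd1 went from 0.18 to 0.01 and that of Ccnd2 from 0.88 to 0.67, and the GSI value of Cdk6 from -0.32 to -0.20. The uncalled apicidin value of Ccne1 became 0.26, of Cdk2 0.35 and of Ccnd3 -0.05, and the GSI value of Ccne1 became -0.11 and of Cdk2 0.28, and the apicidin value of Cdk6 became -0.02. By the region nearest the start, the uncalled apicidin value of Ccne1 was 0.38.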
